A study of Mus musculus with 4 samples.

Results

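The H1foo-only intergenic peaks are the places far from protein-coding genes where the oocyte linker histone H1foo gave a ChIP-seq peak in mouse embryonic stem cells and the antibody used for somatic H1 gave none. A peak was counted when it lay on chromosomes 1 to 19, shared no base with any peak of the AE4 antibody, and had its centre outside every protein-coding gene and more than 10 kb from every protein-coding gene boundary. There were 14836 such peaks among the 97617 H1foo peaks on these chromosomes, which is 15.2%. The whole H1foo list held 97825 peaks. All 4 libraries came from 129S4/SvJae embryonic stem cells with overexpressed H1foo-GFP and no added agent: 2 were made with a rabbit polyclonal H1foo antibody prepared in-house and 2 with AE4. Cells without the transgene were not analysed here, so every value below belongs to cells with added H1foo. The files hold 1 peak list per antibody and no value per library, and no expression values, so the cell type could not be checked against marker transcripts.

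Linker histone H1 sits on the nucleosome where DNA enters and leaves it, and helps to compact the chromatin fibre. H1foo, the product of the gene H1f8, is the H1 variant of the oocyte and early embryo, whereas embryonic stem cells normally carry the somatic variants. Intergenic sequence holds distal enhancers, insulators and most genes for long non-coding RNA (lncRNA), and in embryonic stem cells the enhancers of pluripotency genes often lie far from the gene.

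No genome sequence was used here, so the bases under these peaks could be read only where RefSeq (build GRCm38.p6, the coordinates of mm10) supplies a microRNA or the window from 250 bases before to 50 bases after a gene start. MicroRNA genes are shown first because their mature products are known base by base. Of 242 microRNA genes wholly inside the intergenic sequence searched, 16 shared at least 1 base with an H1foo-only intergenic peak, or 6.61%. The same measure was 21.4% for lncRNA genes, 6.45% for pseudogenes and 2.85% for snoRNA genes. Gene length was not matched, so these shares are not a like comparison. Of the shared and AE4-only intergenic peaks, 4 and 2 shared a base with a microRNA gene. The 16 genes are described below without a claim that their number is unusual. In 15 of these genes the whole hairpin lay inside the peak. Mature sequences matched for 12 of the 16, and 7 that show the range of families are given 5′ to 3′ with the seed, bases 2 to 8, in capitals:
miR-34a-5p: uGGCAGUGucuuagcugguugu
miR-205-5p: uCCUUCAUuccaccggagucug
miR-296-5p: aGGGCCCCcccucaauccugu
miR-182-5p: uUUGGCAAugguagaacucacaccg
miR-193b-3p: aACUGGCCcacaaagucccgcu
miR-411-5p: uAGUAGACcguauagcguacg
miR-7229-5p: uAGUAGACaucccuggauagc

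The peak over Mir34a, whose product restrains proliferation downstream of p53, was chr4:150067980-150068563 with a score of 63.3. Mir205, a microRNA of epithelia, lay inside chr1:193507009-193507736 with a score of 67.5. Mir296, reported in mouse to act on the coding sequence of Nanog, lay 10 bases from the centre of chr2:174266795-174267397, with a score of 137. Mir182, of a sensory-organ cluster, lay inside chr6:30165123-30166045, with a score of 138. Mir411 belongs to the imprinted cluster between Dlk1 and Dio3, and lay under a peak with a score of 83.4. Mir410 of the same cluster is the gene that was covered in part, by a peak with a score of 58.4 that starts inside the hairpin. The seed of miR-411-5p was the same as that of miR-7229-5p, whose gene lay under a peak with a score of 94.5 on chromosome 5. The seed of miR-34a-5p recurs in miR-34b-5p, miR-449a-5p and miR-449c-5p, and that of miR-193b-3p in miR-193a-3p. Over the 16 genes the scores ran between 56.2 and 196, with a median of 71.1, and 4 were 100 or more. The highest belonged to the peak over Mir143, a microRNA of smooth muscle.

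Gene start windows were the other source of sequence. Windows of 3 genes are shown, chosen after the values were seen: a start of the lncRNA Gm39486 lies in the highest-scoring peak that held a whole window, Gm29590 in a high peak far from both genes and AE4, and Gm42018 in a peak whose window held the octamer motif. CpG dinucleotides are in capitals in the windows of Gm39486 (chr11:120164589-120164888, minus strand) and Gm29590 (chr13:37508392-37508691, plus strand). In the window of Gm42018 (chr5:119978302-119978601, plus strand) the capitals mark ATTTGCAT, which is the octamer ATGCAAAT read on the opposite strand.
Gm39486: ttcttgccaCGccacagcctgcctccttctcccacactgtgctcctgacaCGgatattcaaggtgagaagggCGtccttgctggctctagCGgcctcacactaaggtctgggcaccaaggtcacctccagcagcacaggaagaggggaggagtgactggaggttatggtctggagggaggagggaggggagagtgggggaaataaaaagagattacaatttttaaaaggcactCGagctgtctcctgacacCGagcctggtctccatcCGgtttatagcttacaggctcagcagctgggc
Gm29590: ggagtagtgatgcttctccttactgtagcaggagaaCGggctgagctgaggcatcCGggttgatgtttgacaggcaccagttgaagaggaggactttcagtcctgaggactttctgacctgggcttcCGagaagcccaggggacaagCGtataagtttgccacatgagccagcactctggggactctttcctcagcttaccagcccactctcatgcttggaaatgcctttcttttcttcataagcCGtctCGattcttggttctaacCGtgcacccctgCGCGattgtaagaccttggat
Gm42018: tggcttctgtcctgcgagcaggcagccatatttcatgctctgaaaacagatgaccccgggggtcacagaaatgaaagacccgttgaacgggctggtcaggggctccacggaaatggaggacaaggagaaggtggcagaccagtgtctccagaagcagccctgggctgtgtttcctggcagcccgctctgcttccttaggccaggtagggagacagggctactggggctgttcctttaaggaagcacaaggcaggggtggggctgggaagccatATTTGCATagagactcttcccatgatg

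Gm39486 had 7 CpG in a window of 56.0% G+C, under the peak chr11:120164230-120166449 with a score of 440.4. Gm29590 had 9 CpG at 52.3% G+C under chr13:37508253-37509291, with a score of 248, and the nearest AE4 peak was 80.5 kb away. Gm42018 had 57.0% G+C under chr5:119978155-119978608, with a score of 71.2, and the nearest AE4 peak was 104 kb away.

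Each peak carries a score from the authors. No file says on what scale it is, it starts at 50 in the H1foo list, and here it only ranks peaks within that list. The read depth behind the lists is unknown. Neither a test between antibodies nor a replicate error was possible, and the peaks were chosen from the lists themselves, so all values are descriptions. The sources used here give neither whether AE4 also binds H1foo nor whether an input library was used. An H1foo peak without an AE4 peak is therefore not read as the absence of somatic H1.

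Most intergenic H1foo peaks had no AE4 peak on them. Of 18399 intergenic H1foo peaks, 80.6% were H1foo-only (Wilson 95% interval 80.1 to 81.2%, for counting error only). The share was 78.4% of the 15159 H1foo peaks outside genes but within 10 kb of them, and 74.0% of the 64059 H1foo peaks in genes. The other 3563 intergenic H1foo peaks were shared with AE4, and 6582 intergenic AE4 peaks had no H1foo peak on them. H1foo-only peaks just outside and just inside the distance limit were alike: 628 centres at 10 to 11 kb from a gene had a median score of 66.5, and 666 at 9 to 10 kb had 66.4. At the limit of the overlap rule, 174 intergenic peaks had an AE4 peak 1 to 100 bases away, with a median score of 73.7, and 91 had 1 to 100 bases covered by AE4, with a median score of 67.8.

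The H1foo-only intergenic peaks were narrow and of low score beside shared intergenic H1foo peaks. Their median width was 501 bp, against 625 bp for shared intergenic H1foo peaks and 418 bp for AE4-only intergenic peaks. Their median score was 65.3, with 10% of peaks below 52.0 and 10% above 114, against a median of 86.3 for the shared peaks. A score of 200 or more was reached by 155 of them, or 1.04%, against 9.32% of the shared peaks. H1foo-only peaks elsewhere were much closer to these values than shared peaks were. In genes their medians were 538 bp and 69.9, and within 10 kb of genes 531 bp and 68.0. Scores of 200 or more made up 2.30 and 1.46% of them, in the same order. The share that was H1foo-only fell with the score, from 91.0% in the lowest decile of intergenic H1foo scores to 51.8% in the highest. Width enters the rule, because a wide peak has more bases on which an AE4 peak can fall, and the median width was 419 bp in the lowest of these deciles and 1056 bp in the highest. No test was made for that reason.

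Some H1foo-only intergenic peaks nevertheless had high scores, and each is given with its nearest gene. The highest was chr11:117594753-117597661, 2909 bp wide with a score of 520.3, in the lncRNA Gm35170 and 57.5 kb from the start of Tnrc6c, which encodes a protein of microRNA-mediated silencing. The next was chr4:148734071-148736004, with a score of 515, nearest to Gm572 at 57.9 kb and in its gap with Casz1, a zinc finger gene of heart and retina development. A peak 13.9 kb from Rpl3, a ribosomal protein gene, had a score of 444. Peaks nearest to Slc38a10, Ankrd9, Rbfox2 (a splicing regulator) and Rhbg had scores of 440.4, 374, 363 and 363. Others of the 15 highest were nearest to Ap1m1, Zswim4, Dio3, Gpr142, Prex1, 1700018B08Rik and Csnk2a1, with scores of 358 down to 332. Chromosomes 8 and 11 held 3 each of these 15 peaks.

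By chromosome, the density of H1foo-only intergenic peaks differed 4.0-fold. It is given per Mb of eligible sequence, meaning annotated sequence outside protein-coding genes and their 10 kb margins, of which there were 1222 Mb. The mean was 12.1 per Mb for H1foo-only, 2.92 for shared and 5.39 for AE4-only intergenic peaks. Chromosome 11 had the highest density, with 23.3 H1foo-only peaks per Mb, followed by 8 with 21.4, 2 with 20.5, 17 with 17.8 and 5 with 17.0. Chromosomes 14, 3 and 6 had the lowest, with 5.84, 6.16 and 6.69. On all 19 chromosomes H1foo-only peaks outnumbered AE4-only peaks, from 1.57 times on chromosome 3 to 3.43 times on chromosome 11.

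**Figure D1:**
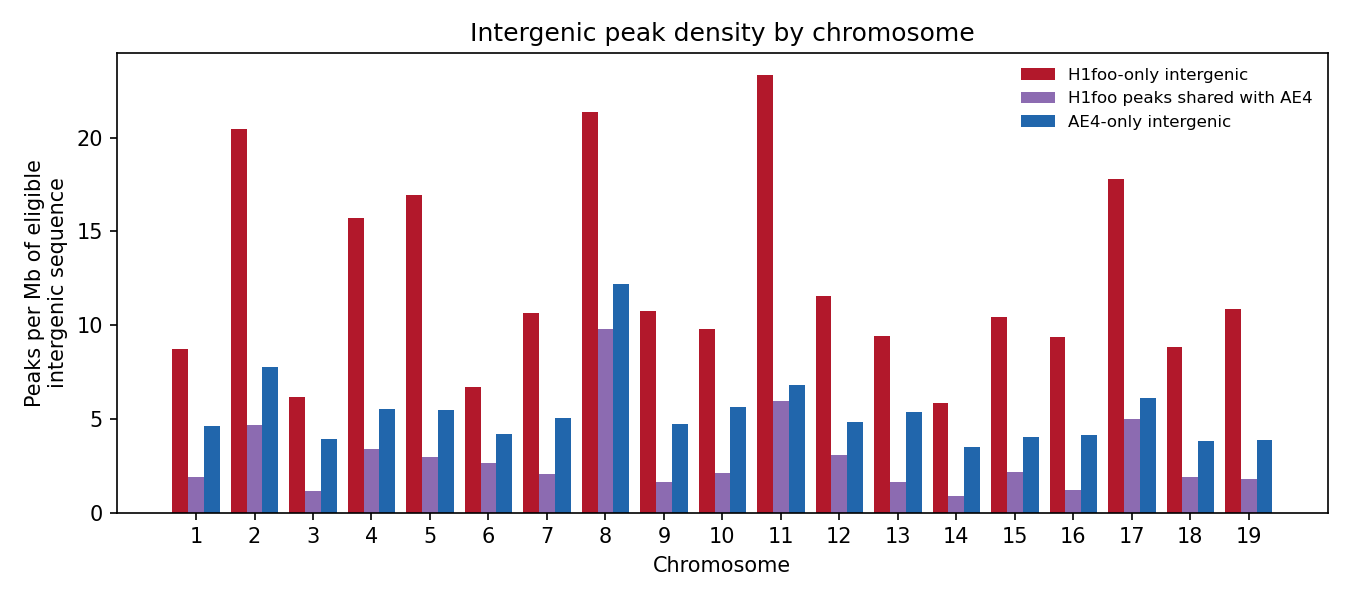
Bars give peaks per Mb of eligible intergenic sequence on each autosome for H1foo-only intergenic peaks, H1foo peaks shared with AE4, and AE4-only intergenic peaks. Chromosomes 11, 8 and 2 had the tallest H1foo-only bars, 23.3, 21.4 and 20.5 per Mb, and chromosome 8 had the tallest shared and AE4-only bars, 9.77 and 12.2.

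Chromosome 8 stood apart in both lists. Its H1foo-only share of intergenic H1foo peaks was 68.6%, and that of chromosome 6 was 71.8%, against 78.1 to 88.7% on the other autosomes. Since peaks thin out with distance from genes, each chromosome was also set against the number that its eligible sequence would hold at the genome-wide rate of each distance class. Chromosome 8 had 1444 H1foo-only peaks, 1.98 times that number, with ratios of 3.82 for shared and 2.45 for AE4-only peaks. Chromosome 11 had 1.82 times that number, with ratios of 1.91 for shared and 1.22 for AE4-only peaks. Chromosome 5 had a ratio of 1.35 for H1foo-only peaks, beside 0.984 for shared and 0.993 for AE4-only peaks. Chromosome 6 was lowest for H1foo-only peaks, at 0.501. Whether copy number or mappability of these chromosomes takes part was not tested.

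H1foo-only intergenic peaks were densest near genes and sparse in the deep gene deserts. At 10 to 20 kb from the nearest gene there were 34.2 per Mb. The density was 25 at 20 to 50 kb, 14.6 at 50 to 100 kb, 7.39 at 100 to 200 kb, 2.21 at 200 to 500 kb and 0.841 beyond 500 kb. The first and last classes differed 40.6-fold. Shared peaks differed 71.9-fold between the same classes, 9.28 against 0.129 per Mb, and AE4-only peaks 6.42-fold, 11.8 against 1.83 per Mb. Below 200 kb H1foo-only peaks were thus denser than AE4-only peaks in each class, and above it they were sparser, 2.21 against 2.47 and 0.841 against 1.83 per Mb. The eligible sequence includes unassembled and repeated sequence, whose share in each class was not measured.

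**Figure D2:**
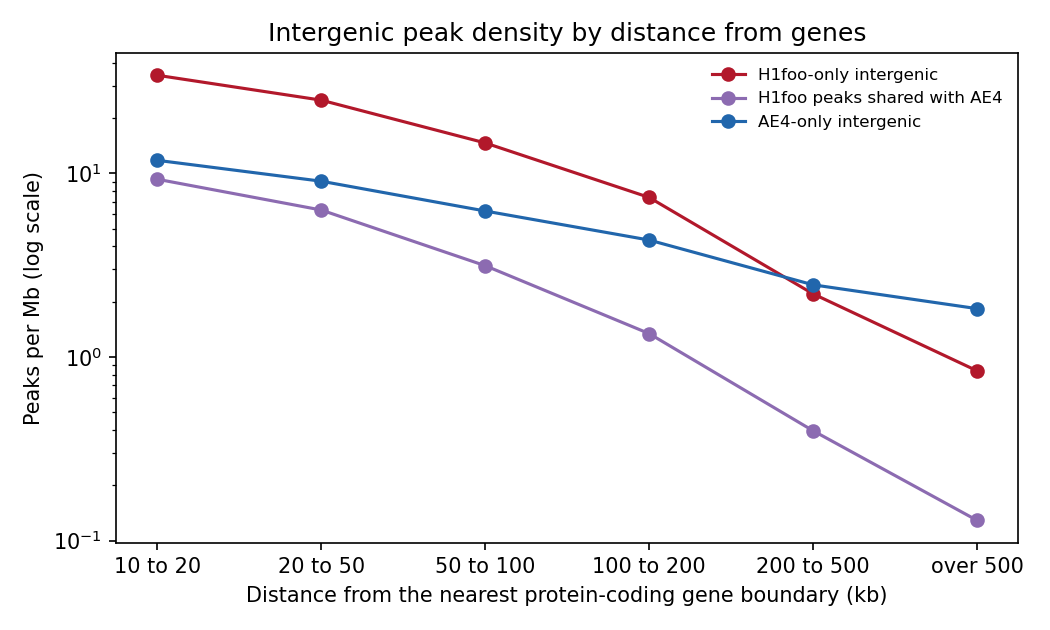
Points give peaks per Mb on a log scale against the distance of the peak centre from the nearest protein-coding gene boundary in kb, for H1foo-only, shared and AE4-only intergenic peaks. The H1foo-only line starts at 34.2 per Mb and ends at 0.841, below the AE4-only line, which ends at 1.83.

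AE4 peaks were kilobases away from most of them. The edge of the nearest AE4 peak was a median of 7.61 kb from an H1foo-only intergenic peak, 11.9% of peaks had one within 1 kb, and 5.63% had none within 100 kb. For H1foo-only peaks in genes the median was 3.94 kb. The nearest other H1foo peak lay a median of 2.57 kb away. These distances are not a like comparison, because the rule excludes any overlap with AE4. The AE4 list is also shorter, with 47206 peaks on these chromosomes against 97617 for H1foo. Which end of a gene was nearer made little difference. Where strand was known, 55% of 11437 H1foo-only intergenic peaks were nearer to the start than to the end of the nearest gene, against 53.6% of eligible positions taken every 1 kb. The 5 peaks farthest from any gene were 1737 to 1911 kb away, nearest to Pik3c3, Pcdh7, Cntnap5b, Cdh20 and D3Ertd751e, and their scores were between 55.8 and 117.

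The peaks were crowded into few gaps between genes. A gap is the eligible stretch between neighbouring protein-coding genes. Of 8339 gaps, 3426 held at least 1 H1foo-only intergenic peak, or 41.1%, and 1234 of these held exactly 1. The 442 fullest gaps held 50% of the peaks. Short gaps were denser: gaps of up to 20 kb had 47.3 peaks per Mb and gaps over 1000 kb had 1.65. Of the 588 gaps over 500 kb, 199 had no H1foo-only peak.

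The fullest gap lay between Foxl1, a forkhead gene of gut mesenchyme, and 1700018B08Rik on chromosome 8. It held 104 H1foo-only, 43 shared and 25 AE4-only peaks in 380 kb. The gap between Septin9 and Tnrc6c on chromosome 11 held 84, 34 and 12, in the same order, and that between Haao and Zfp36l2, an RNA decay factor, on chromosome 17 held 78, 21 and 11. The gap between Ajap1 and A430005L14Rik on chromosome 4 had 73 H1foo-only peaks beside 9 shared and 18 AE4-only peaks. Sdk2 to Rpl38 on chromosome 11 followed with 70 H1foo-only peaks, and Tfap2c to Bmp7 on chromosome 2 with 62. Gli2 to Inhbb, a transcription factor of Hedgehog signalling beside an activin subunit gene, held 61, Gm30733 to Prex1 held 59, Syf2 to Runx3 held 58 and Spring1 to Med13l held 55. In all 10 of these gaps H1foo-only peaks were the most numerous kind, as the choice of gaps by their number favours.

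**Figure D3:**
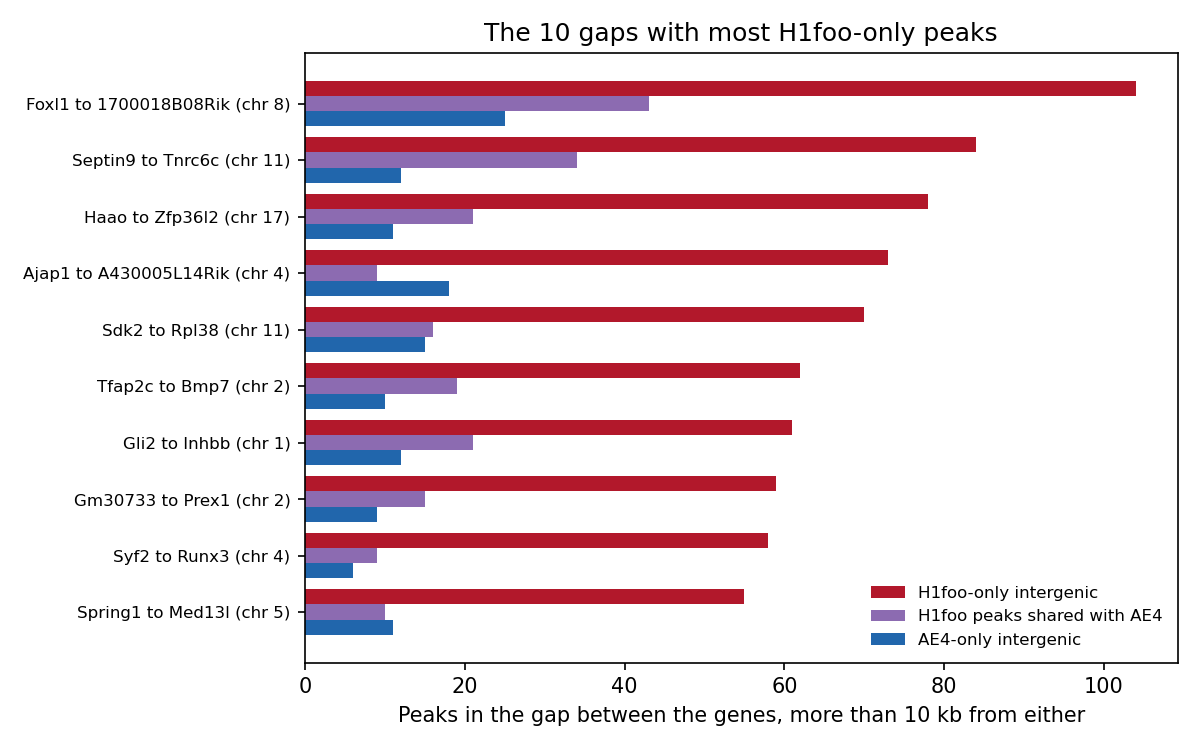
Bars give the number of H1foo-only, shared and AE4-only intergenic peaks in the 10 gaps with most H1foo-only peaks, each named by its flanking protein-coding genes. H1foo-only peaks range between 55 and 104 per gap, and AE4-only peaks between 6 and 25.

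Per length, and among gaps with at least 100 kb of eligible sequence and 5 peaks, the gap between Syf2 and Runx3, a regulator of blood and neuron development, was densest, with 35.6 H1foo-only peaks per 100 kb. Gm572 to Casz1 followed with 31.7, Septin9 to Tnrc6c with 31.0, Nkx1-1 to Fam53a with 28.0 and Foxl1 to 1700018B08Rik with 27.4. Rhou to Rab4a, Cstad to 1700001O22Rik, Smndc1 to Dusp5, Cryaa to Sik1 and Sall4 to Zfp64 completed the 10 densest of at least 100 kb, at 25.4 to 27.1 per 100 kb. Some shorter gaps were denser, such as Snai1 to Ube2v1 with 24 peaks in 44.8 kb and Tha1 to Socs3 with 28 in 72.6 kb, which are named after their values were seen. Several gaps had many H1foo-only peaks and no other intergenic peak. The largest of these was Mrps23 to Ccdc182 on chromosome 11, with 17 H1foo-only peaks in 62.5 kb, a median score of 61.1 and a highest score of 244. In all, 1121 gaps held H1foo-only peaks and neither of the other kinds, and together they held 2006 of the peaks.

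Within gaps the peaks formed runs. Joined where their edges lay within 5 kb, the H1foo-only intergenic peaks made 9009 clusters. In these, 42.6% of peaks stood alone and 37.5% lay in clusters of 3 or more. The largest cluster held 30 peaks in 57.9 kb between Nkx1-1 and Fam53a (chr5:33481420-33539319), with 4 shared H1foo peaks and 5 AE4 peaks in the same span. The next held 24 peaks between Snai1, a regulator of epithelial to mesenchymal transition, and Ube2v1 (chr2:167554138-167597350). Clusters of 23, 22 and 19 peaks, all on chromosome 4, lay between Gm572 and Casz1, between Syf2 and Runx3, and between Ajap1 and A430005L14Rik.

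Genes of pluripotency had many H1foo-only intergenic peaks beside them. Of 40 genes in the list, 29 were the nearest protein-coding gene of at least 1 such peak, or 72.5%, against 21.4% of all 20661 protein-coding genes on these chromosomes and 37.9% of the 11642 with any eligible sequence. The 29 genes had 267 peaks. The eligible sequence of the whole list, including genes without a peak, would hold 65.0 at the genome-wide rates for its distances from genes, so the ratio was 4.11. The ratio was 3.73 for shared peaks and 1.95 for AE4-only peaks around the same list. At least 10 peaks were nearest to each of 10 genes, which together had 200 of the 267. With scores of 100 or more alone, 18 of 40 genes had a peak, beside 6.14% of all genes.

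Tfap2c, an AP-2 factor of naive pluripotency and germ cells, had 42 H1foo-only peaks, 9 shared and 5 AE4-only peaks. Tbx3 had 32, 2 and 6 in the same order, Nr5a2 had 25, 8 and 15, and Jarid2, a partner of Polycomb complex 2, had 21, 2 and 2. Mycn had 17 H1foo-only and 2 shared peaks and no AE4-only peak. All 3 transcription factors Tfap2c, Tbx3 and Nr5a2 thus had more H1foo-only peaks than peaks of both other kinds together. The same held over all intergenic peaks, with 14836 H1foo-only, 3563 shared and 6582 AE4-only.

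Sox2, a core pluripotency factor, had 18 H1foo-only peaks with scores of 51.8 to 118 and a median of 62.4. Of these, 2 lay on the start side and 16 on the end side, out to 254 kb. The gap on the end side, to Atp11b, holds 1082 kb of eligible sequence. None of the peaks lay between 87.6 and 140 kb on that side. The highest on the end side were chr3:34687390-34687940, 35.2 kb from the gene with a score of 118, and chr3:34739624-34740409, 87.6 kb from it with a score of 114. The 6 peaks between 140 and 168 kb had scores of 51.8 to 89.0 and lay 15 to 43 kb from an AE4 peak. Sox2 had 2 shared and 4 AE4-only peaks.

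Klf4 had 4 H1foo-only peaks, against 4.67 given by the distances of its 652 kb of nearest eligible sequence, a ratio of 0.857. On the end side 2 of them lay at 55.5 and 58.6 kb, with scores of 55.6 and 141. The higher was chr4:55468033-55469046, and the nearest AE4 peak lay 51.8 kb away. Klf5 had 13 peaks out to 264 kb, the highest 52.9 kb from the gene with a score of 149. Klf2 had 7 peaks, all on its start side within 29.0 kb, with scores of 50.7 to 116. All of its 21 kb of nearest eligible sequence lies on that side. Klf factors maintain the naive state.

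Nanog, a homeobox factor of pluripotency, had 3 H1foo-only peaks, all on its start side, where its 28 kb of nearest eligible sequence lies. The nearest was chr6:122695721-122696792 at 11.2 kb with a score of 157, and the others, at 20.5 and 37.1 kb, had scores of 73.4 and 90.9. In the same order, the nearest AE4 peaks lay 9.19, 0.202 and 2.16 kb away. The neighbouring Dppa3, a maternal factor also known as Stella, had 6 peaks with scores of 54.7 to 109. Prdm14, a repressor of differentiation, had 4 peaks at 37.1 to 45.7 kb, with scores of 64.6 to 152. Esrrb, an orphan nuclear receptor, had 10 peaks with scores of 57.5 to 99.5.

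Signalling genes of the list had single high peaks. Socs3, the feedback inhibitor of LIF signalling, had 10 H1foo-only peaks, all on its end side at 14.1 to 43.9 kb. All of its 37 kb of nearest eligible sequence lies on that side, in the gap to Tha1. Its highest was chr11:117933830-117935968, with a score of 306, and lay 1.485 kb from the nearest AE4 peak. The scores of the other 9 lay between 50.2 and 171. Etv4, a target of FGF signalling, had a peak with a score of 265 at 21.6 kb, among 7 peaks. An AE4 peak lay 0.547 kb from that peak. Nodal had 3 peaks, the highest at 11.7 kb with a score of 157, and its antagonist Lefty1 had 2, with scores of 73.0 and 138. Spry4 had 7 peaks, Lifr 3, Fgf4 3 and Id1 2. The remaining genes of the list with a peak were Sall4 with 12, Tet2 with 5, Dppa4 with 3, Otx2 with 3, Etv5 with 2, and Tdgf1, Tfcp2l1 and Utf1 with 1 each. Among the 11 genes without one, Dppa5a, Gdf3, Stat3 and Zic2 had no eligible sequence, and Pou5f1, Zfp42, Lin28a, Lin28b, Dppa2, Lefty2 and Tet1 had some.

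Oocyte genes had few H1foo-only intergenic peaks. Of 29 genes in the list, 3 had one, or 10.3%, against 21.4% of all protein-coding genes. Lhx8, a factor of early follicles, had 2 peaks, and Kit and its ligand Kitl had 1 each, with scores of 54.0 to 77.6. These 4 peaks compare with 22.7 given by the distances from genes, a ratio of 0.177. For shared peaks the ratio was alike, 0.180 from 1 peak, and for AE4-only peaks it was 1.03, from 9 peaks. Of 19 genes of the 2-cell stage, Gm5662 and Tdpoz3 had 1 peak each, a ratio of 0.0632, with 4 shared and 9 AE4-only peaks beside the list. Many 2-cell stage genes have near-identical copies, and reads cannot be placed on them with certainty. Whether this takes part in the low ratio was not tested.

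Chemosensory receptor genes also had few for their sequence. Of all protein-coding genes 21.4% were nearest to a peak, but 17 of 1100 olfactory receptor genes, or 1.55%, and 16 of 352 vomeronasal receptor genes, or 4.55%, were nearest to an H1foo-only intergenic peak. The olfactory genes had 22 peaks, where 284 were given by their distances from genes, and the vomeronasal genes had 18, where 305 were given. The ratios were 0.0774 and 0.0591 for H1foo-only peaks, 0.0535 and 0.102 for shared peaks, and 0.473 and 0.233 for AE4-only peaks. These genes are taken to be silent in embryonic stem cells, which was not measured here, and lie in large arrays of similar copies. Whether either takes part in the low ratios was not tested.

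Developmental regulators and signalling genes lay between these extremes. Of 92 lineage regulators 50 had an H1foo-only intergenic peak, or 54.3%, against 21.4% of all protein-coding genes. The ratio to the number given by distance was nevertheless 1.17, since these genes have much eligible sequence. Sall1, a zinc finger gene of kidney development, had 54 peaks, Foxf1 and Irx3 22 each, Irx5 and Sall3 18 each, and Sox1 14. All of these but Sall3 lie on chromosome 8, the chromosome with the highest ratio in both lists. Of 41 forkhead genes 18 had one, or 43.9%, with a ratio of 2.65. Foxl1, also on chromosome 8, alone had 60 of their 185 peaks. Of 39 Hox genes, 8 had eligible sequence and 7 of these had a peak, led by Hoxc4 with 6 and Hoxb13 with 5, against 37.9% of all genes with eligible sequence. The Hox ratio was 2.30, beside 2.38 for shared peaks. Of 56 signalling ligand genes 22 had one, or 39.3%, with a ratio of 1.81. Inhbb led with 37, followed by Bmp7 with 26, Wnt7b with 12, Wnt4 with 11 and Wnt11 with 10. Fgf15 had 4 peaks within 14.1 kb, the highest with a score of 260.3. The ratios of shared peaks for forkhead genes and ligands were 3.10 and 2.43, above those of H1foo-only peaks.

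**Figure D4:**
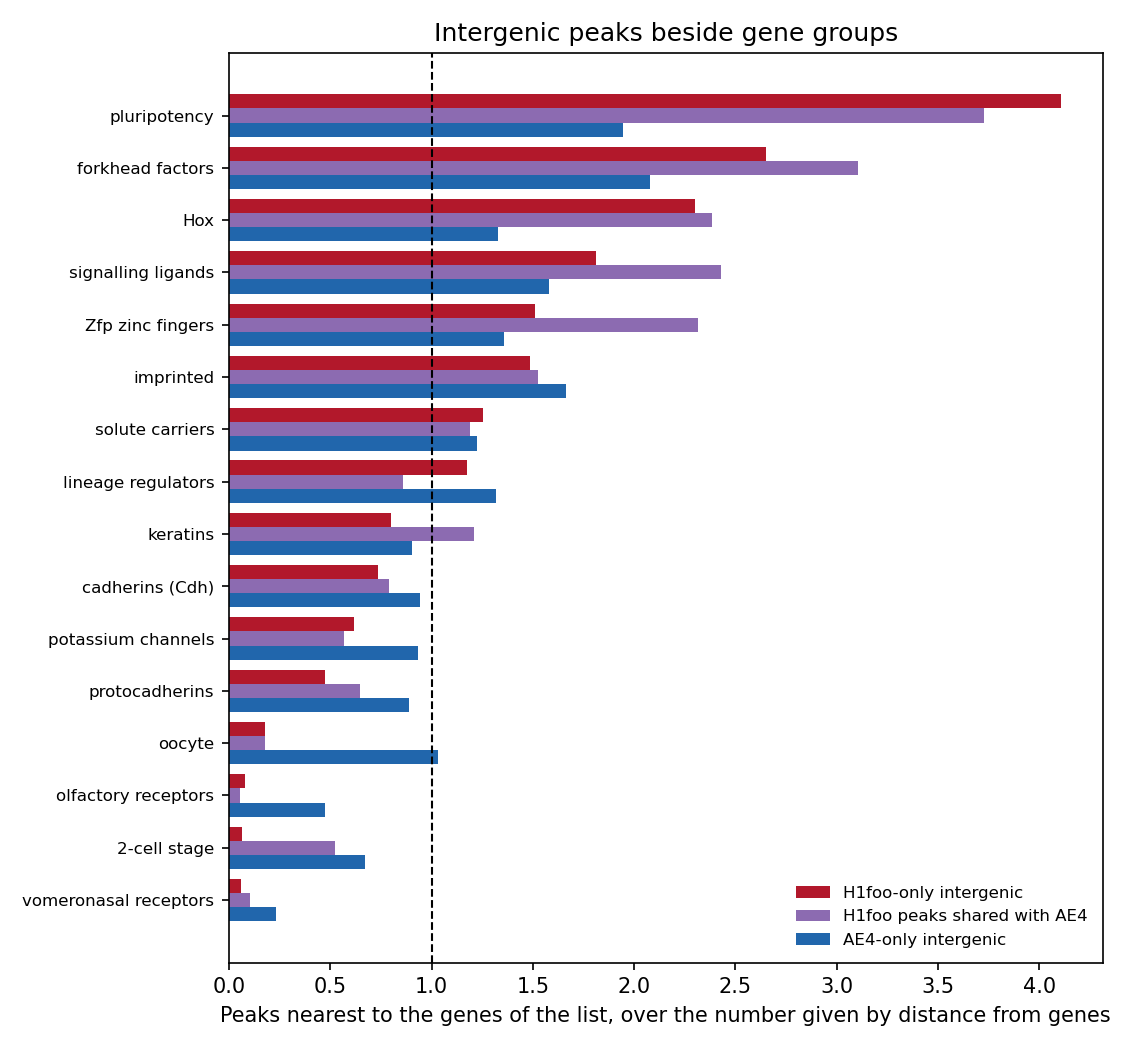
Bars give, for each gene list, the number of H1foo-only, shared and AE4-only intergenic peaks nearest to its genes divided by the number that the distances of its eligible sequence from genes would give (dashed line, a ratio of 1). The H1foo-only bar is longest for pluripotency genes, at 4.11, and shortest for vomeronasal receptors, at 0.0591.

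Imprinted genes, which are expressed from the copy of 1 parent, had H1foo-only intergenic peaks in a few clusters. Of 30 such genes 12 had a peak, or 40.0%, against 21.4% of all protein-coding genes. Their list had 1.48 times the number of H1foo-only peaks given by distance, beside 1.53 times for shared and 1.66 times for AE4-only peaks, so it did not stand out for H1foo-only peaks. Around the domain of Dlk1, a paternally expressed ligand of the Notch type, and Dio3, a deiodinase gene, 35 peaks were nearest to Dlk1, Rtl1 or Dio3, with scores of 50.2 to 354 and a median of 61.9. Of these, 12 lay between Dlk1 and Rtl1 and 14 between Rtl1 and Dio3, while 7 lay before Dlk1 and 2 past Dio3. Dlk1 had 13 H1foo-only peaks, no shared peak and 1 AE4-only peak. Rtl1 had 13, 3 and 8, and Dio3 had 9, 1 and 5, in the same order. The highest of the 35 was chr12:109950708-109952894, 327 kb from the start of Dio3 and 24.4 kb from AE4. It lay next to 2 other peaks with scores of 89.9 and 89.5. Gnas, a G-protein gene, had 10 peaks, the highest with a score of 188, Snrpn had 6 and Igf2 had 4. Snrpn was a contrast, with 10 shared and 8 AE4-only peaks.

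Many H1foo-only intergenic peaks lay inside lncRNA genes. LncRNA genes covered 12% of the eligible sequence and held the centres of 21.4% of the peaks. The density there was 21.7 per Mb, against 10.7 outside all annotated genes. Given the distances from protein-coding genes, the 3181 peaks in lncRNA genes were 1.56 times the number given, and the ratios were 1.56 for shared and 1.23 for AE4-only peaks. By gene, 1190 of 5565 lncRNA genes wholly in eligible sequence shared a base with an H1foo-only peak, or 21.4%. For pseudogenes it was 346 of 5366, or 6.45%, although their density of peak centres, 21.9 per Mb, was close to that in lncRNA genes. The counts for small RNA genes were 20 of 702 snoRNA genes (2.85%), 2 of 194 tRNA genes (1.03%) and 2 of 452 snRNA genes (0.442%). These shares count genes and do not allow for gene length. By peak centres, snoRNA genes held 6, or 73.0 per Mb, and tRNA and snRNA genes held 0. Such genes have near-identical copies, where reads are placed with less certainty. Whether this takes part in the counts was not tested.

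The non-coding genes with most H1foo-only centres were Gm31724 and Gm32611, with 27 each, Gm11476 with 24, Pvt1 with 22 and Banf2os with 21. Gm11476 spans the cluster between Snai1 and Ube2v1, and had 44.0 peaks per 100 kb. Pvt1, the lncRNA beside Myc, had scores of 51.0 to 175. Gm31615, the immune receptor loci Igh and Tcra, the transcribed pseudogene Gm29719, and the lncRNA genes Gm35338, Gm11725 and Gm30093 followed with 18, 17, 16, 15, 14, 14 and 14. Igh and Tcra are 2751 and 1796 kb long, so their density was 0.618 and 0.891 per 100 kb.

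LncRNA genes known from embryonic stem cells were examined after their values had been seen. Lncenc1, which is expressed in naive cells, had 6 H1foo-only peaks with scores of 52.3 to 139. Of 17 Platr genes, a series of pluripotency-associated transcripts, 15 had eligible sequence and 8 held an H1foo-only centre, 18 in all, led by Platr22 with 6 and Platr25 with 5. Over all lncRNA genes wholly in eligible sequence, 21.4% shared a base with a peak, which is a different measure. Gene length was not matched: Platr22 spans 29.5 kb, and Platr25, annotated as miscellaneous RNA, 90.2 kb. Among the Platr genes the highest score, 166, belonged to the peak in Platr26. Sox2ot had 4 peaks, Tunar 2 and Meg3 2. Trp53cor1, an lncRNA induced by p53, had 10 peaks in 21.7 kb with a highest score of 206. Tbx3os1 had 9, Lncpint 8 and Miat 5, and Neat1, H19 and Airn had 1 each.

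The start windows of non-coding genes under H1foo-only intergenic peaks were rich in G+C. Of 5837 such windows in eligible sequence, 95 lay wholly inside an H1foo-only peak, or 1.63%, and 284 of 4771 genes (5.95%) had a window that at least touched one. With overlapping windows of a gene counted once, 85 remained. Their median G+C was 54.3%, against 53.3% in 36 windows inside shared peaks, 54.3% in 9 windows inside AE4-only peaks and 46.3% in 4393 windows that touched no peak. The middle 50% of windows ran between 52.7 and 57.7% inside H1foo-only peaks and between 41.7 and 50.3% without a peak. The median ratio of observed to expected CpG was 0.271, 0.222, 0.378 and 0.203 in the same classes. Over all 32851 RefSeq start windows, coding genes included, the medians were 52.7% and 0.384. ChIP and sequencing can favour G+C-rich fragments, and its part in these values was not tested.

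**Figure D5:**
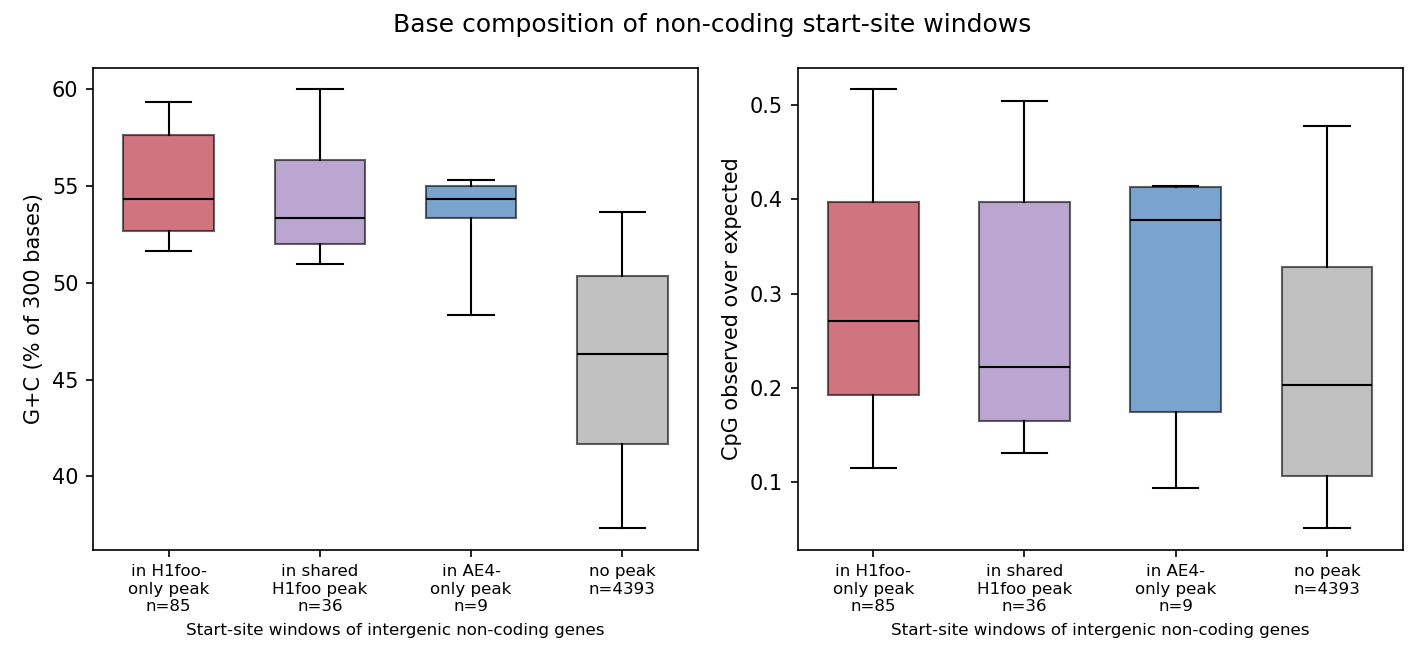
Boxes give the middle 50%, the line the median and the whiskers the 10th to 90th percentile of G+C (left) and of observed over expected CpG (right) in 300-base start windows of intergenic non-coding genes. Windows in H1foo-only, shared and AE4-only peaks had median G+C of 54.3, 53.3 and 54.3%, above the 46.3% of windows without a peak.

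Motifs were searched on both strands of the same windows, as in the window of Gm42018 printed above. The Esrrb motif TCAAGGTCA was in none of the 85 windows inside H1foo-only peaks, in 0.592% of windows without a peak and in 0.423% of all start windows. The octamer ATGCAAAT was in 2 of 85, or 2.35%, against 2.30% without a peak and 1.74% of all. The CTCF core, spelled CC, any 3 bases, AG, any 2 bases, GGC, was in 8 of 85, or 9.41%, against 4.78% without a peak and 8.61% of all. A match is a string of bases and not a bound site.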

How the data were processed

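Libraries were made by ChIP after enzymatic digestion of chromatin, per the labels' protocols. The submitters' processing notes name Bowtie 1.1.2 and the build mm10. Peak names per the file headers are those of MACS, version unknown. For each antibody the authors deposited 1 list with a score per peak, and the sources used here do not give how its libraries were combined. The replicate numbers in the labels name libraries, not separate cultures, and neither list holds a value per library.

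Starts were converted to positions counted from 1. Gene spans came from RefSeq (GRCm38.p6), with 20661 protein-coding genes on chromosomes 1 to 19. Eligible sequence was the annotated span of each chromosome outside protein-coding genes widened by 10 kb, in place of the planned assembled length. The number given by distance is the sum, over 6 distance classes, of eligible kb times the genome-wide peak rate of the class. This ratio and the start windows, which replace the planned sequence of peak centres, were added after the data were seen. The peaks and gene lists were chosen with earlier results of these data known.

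Genes named are, by rule, those nearest to the 15 highest scores, those flanking the 10 fullest gaps and the 10 densest with at least 100 kb and 5 peaks, pluripotency and oocyte genes with a peak, the leading genes of other lists, the non-coding genes with most peaks, the 5 farthest peaks and the 5 largest clusters. MicroRNAs, known lncRNAs and sets of genes without a peak were named after their values were seen. A result that falls under this rule is not reported here. Interval code was tested on simulated data. Python 3.11.15, numpy 2.4.6, pandas 2.3.3, scipy 1.17.1 and matplotlib 3.10.9 were used.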

Additional observations from a re-analysis of the deposited data

How the results depend on the processing

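No paired analysis was possible because each antibody has 1 list without values per library, and leaving out a library was not possible for the same reason. The number of H1foo-only intergenic peaks, 14836, stayed within 1.5 times under 9 of 12 alternatives. It was 4949 beyond 50 kb from genes, 7010 when all annotated genes were avoided and 2300 with H1foo scores of at least 100. The H1foo-only share, 80.6%, was 61.8% at scores of at least 100, 71.1% without an AE4 peak within 1 kb and 86.5% with AE4 scores of at least 60. It was 84.2% when AE4 had to cover 50% of a peak, 85.5% for peaks cut to 200 bp, 79.9, 81.5 and 83.5% beyond 5, 20 and 50 kb, 79.2% after merging peaks within 1 kb and 82.2% without chromosome 8.

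The ratio of the densest to the sparsest chromosome, 4.0, was 8.31 at scores of at least 100 and 4.64 beyond 50 kb, where chromosome 8 in place of 11 was densest. The ratio between 10 to 20 kb and beyond 500 kb, 40.6, was 107 at scores of at least 100, from 13 distant peaks, and 98.2 with all annotated genes, from 3. Median width and score, 501 bp and 65.3, were 494 bp and 64.6 without AE4 within 1 kb, and 477 bp and 63.3 beyond 50 kb. At scores of at least 100, 27.6% of peaks lay in non-coding genes in place of 24.7%, 1269 genes in place of 4416 were nearest to a peak, and 18 pluripotency genes in place of 29. Counts for all 15 other lists fell by more than 1.5 times there. Without chromosome 8 the cadherin genes with a peak were 7 of 15, or 46.7%, in place of 14 of 23, or 60.9%. With peaks within 50 kb alone they were 8 of 23. Median G+C was 52.3% for windows that touched a peak, in place of 54.3%. Unknown depth limits all counts.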

Other observations

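Gene families that the report does not describe also differed in their H1foo-only intergenic peaks. Of 358 solute carrier genes, which encode membrane transporters, 93 were nearest to such a peak, or 26.0%, against 21.4% of all protein-coding genes. Their 326 peaks were 1.25 times the number given by distance from genes. Slc22a12 led with 19, followed by Slc45a1 with 17, and Slc25a33 and Slc2a1, the glucose transporter, with 13 each. Of 360 Zfp zinc finger genes 75 had one, or 20.8%, which is close to the share of all protein-coding genes. Their 328 peaks had a ratio of 1.51, below the 2.32 of shared peaks. Zfp64 alone had 52, and Zfp281, a factor of embryonic stem cells, had 21.

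Cell adhesion, channel and keratin genes had ratios below 1. The 23 cadherin genes had 66 H1foo-only peaks, a ratio of 0.738. At least 1 was nearest to 14 of these genes, or 60.9%, against 21.4% of all protein-coding genes. Cdh26 had 22 peaks and Cdh1, the cadherin of embryonic stem cells and epithelia, had 2, with a highest score of 133. The 67 protocadherin genes had 28 peaks, a ratio of 0.475, and Pcdh1 had 12 of them. The 79 potassium channel genes had 74 peaks, and Kcnk12 led with 12. Their ratio was 0.618, beside 0.570 for shared and 0.934 for AE4-only peaks. Of 109 keratin genes, 6 had a peak, or 5.5%, against 21.4% of all protein-coding genes. Of the 53 with eligible sequence these were 11.3%, against 37.9% of all genes with such sequence. Their ratio was 0.798 for H1foo-only and 1.21 for shared peaks, and Krt80 had 7 peaks and Krt42 had 4.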
